A study of Sus scrofa with 12 samples.

Results

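The genes described are 10 enzymes that remove superoxide and peroxides: the glutathione peroxidases GPX1, GPX3 and GPX4, the peroxiredoxins PRDX1, PRDX2, PRDX4 and PRDX6, the superoxide dismutases SOD1 and SOD2, and catalase, CAT. They were taken by gene symbol from the coding-gene table, in which they are 10 of 21674 genes. RNA was sequenced from the testes of 12 boars of the Hezuo (HZ) breed, a small native Chinese pig, and the Landrace (LC) breed, a lean commercial pig. HZ boars were sampled at 30 days (Ha) and 120 days of age (Hb), and LC boars at 30 days (La) and 120 days (Lb), with 3 boars in each group. Library totals ran from 17165519 estimated counts in Hb3 to 23758931 in Ha1, of which the 10 genes took between 0.200% and 0.353%. The libraries are of whole testis tissue, in which fewer cells of a type, less RNA per cell and more RNA from other cells cannot be told apart.

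Superoxide dismutases turn superoxide into hydrogen peroxide, which catalase, glutathione peroxidases and peroxiredoxins then break down, the peroxidases with electrons from glutathione or thioredoxin. In the testis these enzymes are known to protect germ cells and the polyunsaturated membranes of sperm, and the steroid-making Leydig cells are a known source of oxidants. GPX4, which reduces lipid hydroperoxides within membranes, is also known as a structural protein of the sperm midpiece. The deposited annotation placed PRDX1, SOD1, SOD2 and CAT in the peroxisome pathway and GPX1, GPX3 and GPX4 in glutathione metabolism, with GPX4 also in ferroptosis.

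Levels of different genes were compared in FPKM, which corrects for transcript length and depth. In 30-day HZ testes PRDX1 stood at 420.2 ± 52.1 FPKM (mean ± SD, n = 3 here and in all group means), PRDX2 at 351 ± 18.8, GPX3 at 315 ± 209 and CAT at 225 ± 35.9. Neighbours in this order overlapped in their ranges, and the 4 genes stood above the other 6 in every Ha library. Of those, PRDX4 (102 ± 12.7 FPKM) and GPX4 (101 ± 5.77) overlapped, as did SOD1 (68.0 ± 12.8) and SOD2 (65.2 ± 3.76), with the mean of PRDX6 (87.0 ± 4.72) between the pairs and GPX1 lowest at 55.1 ± 1.61. In 30-day LC testes PRDX2 (379.8 ± 35.3 FPKM), GPX3 (338 ± 119.8) and PRDX1 (270.5 ± 17.4) led with ranges that overlapped between neighbours, above CAT (160.0 ± 17.0) and PRDX4 (92.7 ± 4.24). SOD1 (71.1 ± 9.91 FPKM), PRDX6 (66.2 ± 2.65) and GPX4 (63.1 ± 3.48) did not differ beyond their spread, and GPX1 (45.2 ± 8.32) and SOD2 (36.1 ± 1.07) were lowest. GPX4 was thus in the lower part of the order at 30 days in LC testes and in its middle in HZ testes.

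At 120 days the order was headed by GPX4 in both breeds. In HZ testes GPX4 stood at 961 ± 126 FPKM, above PRDX1 at 258 ± 13.7 and PRDX4 at 75.0 ± 16.7, each with a range apart from the next. PRDX2 (48.2 ± 6.59 FPKM), PRDX6 (43.1 ± 5.37), GPX3 (41.7 ± 19.8), CAT (31.9 ± 15.6) and SOD1 (26.1 ± 2.23) followed with ranges that overlapped between neighbours, and SOD2 (17.4 ± 4.49) and GPX1 (12.5 ± 4.41) were lowest. In LC testes GPX4 stood at 721 ± 49.4 FPKM and PRDX1 at 296 ± 18.1, again with ranges apart from the next. PRDX2 (145 ± 43.3 FPKM), GPX3 (92.5 ± 80.0) and PRDX4 (86.4 ± 4.21) overlapped between neighbours, PRDX6 stood at 69.8 ± 10.8, CAT (45.6 ± 13.5) and SOD1 (38.8 ± 3.09) overlapped, and SOD2 (15.3 ± 1.48) and GPX1 (14.9 ± 14.1) were lowest. By mean FPKM among all 21674 genes, GPX4 ranked 438 in Ha and 15 in Hb, and 719 in La and 29 in Lb. PRDX1 ranked 91 and 145 in Ha and Hb and 150 and 110 in La and Lb, while GPX1 ranked 899 and 4170 in Ha and Hb and 1045 and 3827 in La and Lb.

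The make-up of the 10 transcripts differed between the ages more than their sum did. GPX4 made up 5.23, 5.72 and 6.13 percent of their summed FPKM in Ha1 to Ha3 and 62.5, 60.2 and 67.2 percent in Hb1 to Hb3. In LC testes its share was 3.80, 4.69 and 4.05 percent in La1 to La3 and 50.8, 41.15 and 50.7 percent in Lb1 to Lb3. The shares of the age groups did not overlap in either breed. The summed FPKM itself was 1790 ± 244 in Ha and 1515 ± 126 in Hb, and 1522 ± 202 in La and 1525 ± 119 in Lb, and was not tested. Without GPX4 the sum was 1689 ± 238 in Ha against 554 ± 34.0 in Hb, and 1459 ± 199.7 in La against 804 ± 145 in Lb. In TMM-scaled CPM (counts relative to the scaled library total) the drop was smaller. There the sum without GPX4 was 2697 ± 391 in Ha against 1114 ± 182 in Hb, and 2333 ± 347 in La against 1471 ± 354 in Lb. CAT made up 9.30, 14.7 and 14.4 percent in Ha1 to Ha3 and 3.16, 1.57 and 1.52 percent in Hb1 to Hb3. The share of PRDX1 lay between 16.5% and 24.5% in all 12 libraries.

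**Figure D1:**
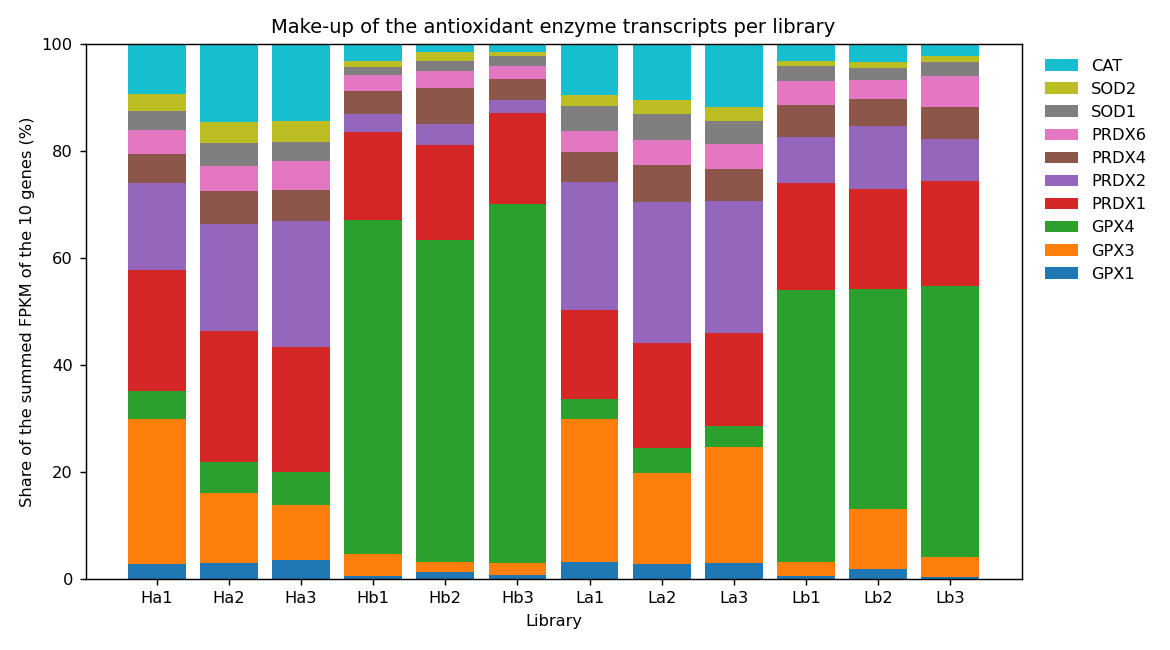
Share of the summed FPKM of the 10 genes (percent, stacked bars) in each of the 12 libraries, with Ha and La at 30 days and Hb and Lb at 120 days. The GPX4 share lies between 3.80% and 6.13% in the 30-day libraries and between 41.15% and 67.2% in the 120-day libraries.

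The comparisons Ha vs Hb and La vs Lb ask what differs between 30 and 120 days of age within a breed. The call of a gene required, in edgeR's quasi-likelihood test of the 6 libraries, an adjusted p (Benjamini-Hochberg over all tested genes) under 0.05 together with a log2 fold change beyond 1 in either direction. In Ha vs Hb, GPX4 rose and GPX1, GPX3, PRDX2, SOD2 and CAT fell, so that 1 of the 10 genes was called higher at 120 days and 5 lower. Of all 16548 genes tested, 28.2% were called higher and 23.2% lower, so the share of the 10 genes that fell lies above the background and the share that rose below it, over few genes. In La vs Lb, GPX4 rose and GPX3, PRDX2 and CAT fell, 1 and 3 of the 10 genes, beside 27.5% and 20.1% of 16637 tested genes. At the adjusted p alone, with no minimum fold, 8 of the 10 genes passed in HZ testes, beside 68.9% of all tested genes, and 8 in LC testes, beside 70.0%. The median log2 fold change of the 10 genes was -1.16 in Ha vs Hb against -0.02 over all tested genes, and -0.74 in La vs Lb against 0.01. Without La1 or Lb3 the count in La vs Lb was 2, since GPX3 and PRDX2 were then not called. All 10 genes passed the filter on low counts in each comparison. Scaling moved the median of all genes: against TMM, upper-quartile scaling moved it by -0.32 for HZ and -0.26 for LC testes, and library totals by -0.30 and -0.17. The 4 comparisons of groups share libraries, so their values are given side by side and not related to each other.

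Of the glutathione peroxidases, GPX4 had the largest change of the 10 genes in both breeds. Its TMM-scaled CPM (counts relative to the scaled library total) were 112, 107 and 100.5 in Ha1 to Ha3 and 1559, 1131 and 1605 in Hb1 to Hb3. In LC testes they were 72.2, 68.5 and 63.4 in La1 to La3 and 1060, 929.8 and 879 in Lb1 to Lb3. Every 120-day library stood above every 30-day library. TMM-scaled CPM is the scale for values of a gene across libraries wherever FPKM or estimated counts are not named. FPKM carry no TMM factor, so their ratios between ages can differ from the fold changes of the fits. GPX4 rose in HZ testes by a log2 fold change of 3.75 (SE 0.19, adjusted p = 5.80e-06) and in LC testes by 3.83 (SE 0.12, adjusted p = 7.76e-08), which are 13.5-fold and 14.2-fold. The call held without any single library, with log2 fold changes between 3.66 and 3.87 in Ha vs Hb and between 3.76 and 3.88 in La vs Lb. GPX4 lies on chromosome 2 from 77321568 to 77323931 (build Sscrofa11.1, as for all positions given; NCBI Gene 399537).

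GPX1, the cytosolic enzyme that reduces hydrogen peroxide with glutathione, moved the other way. Its CPM was 53.7, 50.4 and 52.1 in Ha1 to Ha3 and 13.1, 21.5 and 14.4 in Hb1 to Hb3. All Ha libraries stood above all Hb libraries, and GPX1 fell with a log2 fold change of -1.67 (SE 0.21, adjusted p = 0.000313). In LC testes the CPM was 53.1, 36.9 and 41.4 in La1 to La3 and 9.76, 38.4 and 6.21 in Lb1 to Lb3. Lb2 stood within the range of the La libraries and the other Lb libraries far below it. The difference of La vs Lb was not called, with a log2 fold change of -1.26 (SE 0.57, adjusted p = 0.0788). Without Lb3 the log2 fold change was -0.86, under the minimum fold, and the adjusted p reached 0.207 with 1 library left out. Without Lb2 the difference was called at a log2 fold change of -2.44 with an adjusted p of 0.000145. It was also called with upper-quartile scaling (-1.52), library totals (-1.45), limma on FPKM (-1.89 and -1.99), a fit of all 12 libraries (-1.27) and a replicate block, which treats libraries of the same number as paired (-1.70), with adjusted p from 0.0106 to 0.162 over the alternatives. GPX1 lies on chromosome 13 from 31916269 to 31917337 (NCBI Gene 397403).

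GPX3, the secreted form of the family, varied widely between boars of a group. Its CPM was 1023, 432 and 296 in Ha1 to Ha3 and 177, 61.4 and 94.2 in Hb1 to Hb3. Ha1 and Hb1 were the highest of their groups, and the groups did not overlap. GPX3 fell in HZ testes with a log2 fold change of -2.39 (SE 0.56, adjusted p = 0.00655). In LC testes its CPM was 891, 434 and 596 in La1 to La3 and 98.0, 446 and 113 in Lb1 to Lb3, and Lb2 again stood within the range of the La libraries. GPX3 fell there with a log2 fold change of -1.54 (SE 0.56, adjusted p = 0.0362), a call that rests on the choice of libraries and tool. It was lost without La1 (log2 fold change -1.23, adjusted p = 0.110), La3 (-1.59, 0.0650), Lb1 (-1.18, 0.0945) or Lb3 (-1.23, 0.108), and with DESeq2 (-1.50, 0.0936), while the adjusted p ran from 0.00629 to 0.0936 over the alternatives. Without Lb2 the log2 fold change was -2.59. GPX3 lies on chromosome 16 from 71980467 to 71989011 (NCBI Gene 396598).

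**Figure D2:**
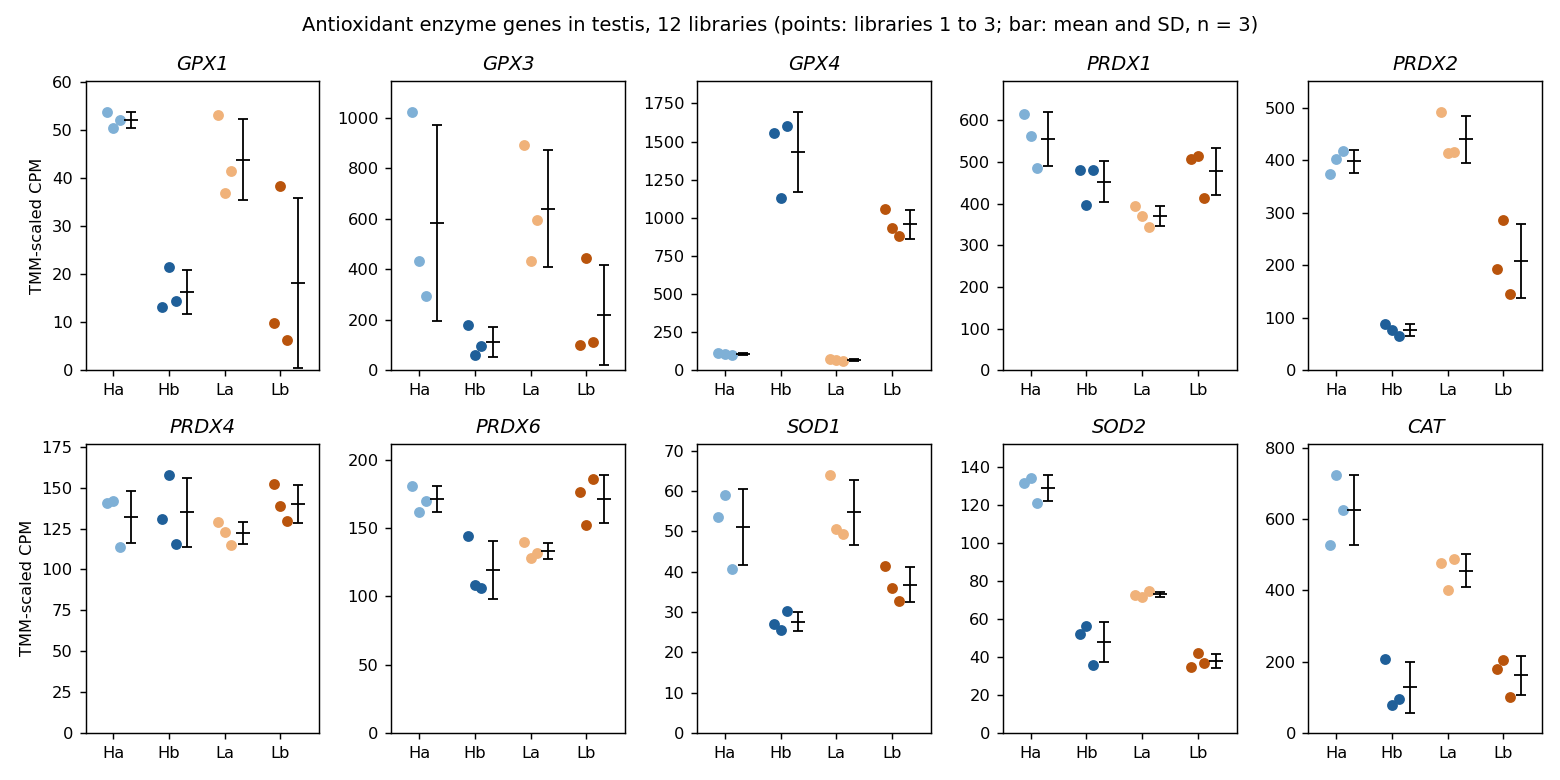
TMM-scaled CPM of the 10 genes in testis, 1 panel a gene, with a point for each of the 3 libraries of Ha, Hb, La and Lb and bars for the mean and SD. GPX4 stands between 878.7 and 1605 in the 120-day libraries and between 63.4 and 112 in the 30-day libraries, and in Lb2 GPX1 and GPX3 lie within the range of La.

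Among the peroxiredoxins, which reduce peroxides with a reactive cysteine, PRDX2 stood apart from the other 3. The CPM of PRDX2, a cytosolic form that is also abundant in red blood cells, was 374, 401 and 417 in Ha1 to Ha3 and 87.7, 77.4 and 65.3 in Hb1 to Hb3. In LC testes it was 492, 414 and 415 in La1 to La3 and 192, 285 and 146 in Lb1 to Lb3. Neither pair of age groups overlapped, and each Lb library stood above each Hb library. PRDX2 fell in HZ testes with a log2 fold change of -2.37 (SE 0.15, adjusted p = 1.37e-05) and in LC testes with -1.07 (SE 0.22, adjusted p = 0.00234). The LC change went under the minimum fold without La1 (log2 fold change -0.99, adjusted p = 0.00951) or Lb3 (-0.87, 0.00442). PRDX2 lies on chromosome 2 from 66207829 to 66211474 (NCBI Gene 100512521), where it overlaps RNASEH2A by 589 bases.

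PRDX1, the most abundant peroxiredoxin of the list in FPKM in Ha, Hb and Lb, was called in neither comparison of ages. Its CPM was 616, 562 and 487 in Ha1 to Ha3 and 482, 396 and 480.4 in Hb1 to Hb3, and all Hb libraries stood below all Ha libraries. The difference was not called, with a log2 fold change of -0.29 (SE 0.15, adjusted p = 0.113). It was larger but still under the minimum fold with upper-quartile scaling (-0.61), library totals (-0.61) and limma (-0.70), at adjusted p from 0.00188 to 0.195 over the alternatives. In LC testes the CPM was 394, 372 and 345 in La1 to La3 and 506, 514 and 413 in Lb1 to Lb3, with all Lb libraries above all La libraries. The log2 fold change was 0.38 (SE 0.11, adjusted p = 0.0148), under the minimum fold, and it was 0.12 with upper-quartile scaling, 0.21 with library totals and 0.13 with limma, at adjusted p from 0.00442 to 0.370 over the alternatives. In FPKM La and Lb overlapped. PRDX1 lies on chromosome 6 from 165847390 to 165859918 (NCBI Gene 100512476).

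PRDX6, which also acts as a phospholipase, stood on opposite sides of its 30-day level in the breeds on the TMM scale, as PRDX1 did. Its CPM was 181, 162 and 169.9 in Ha1 to Ha3 and 144, 108 and 106 in Hb1 to Hb3, against 140.0, 128 and 132 in La1 to La3 and 176, 152 and 186 in Lb1 to Lb3. The 120-day libraries stood below the 30-day libraries in HZ testes and above them in LC testes. The log2 fold change was -0.52 (SE 0.15, adjusted p = 0.0186) in Ha vs Hb and 0.38 (SE 0.11, adjusted p = 0.0159) in La vs Lb, both under the minimum fold, although limma on FPKM called the former (-1.02 with 0.1 added) with adjusted p between 0.000230 and 0.0292 over the alternatives. The LC value was 0.12 with upper-quartile scaling, 0.22 with library totals and 0.06 with limma, at adjusted p up to 0.652, and in FPKM Lb2 stood below all La libraries. PRDX6 lies on chromosome 9 from 115857629 to 115868898 (NCBI Gene 399538), overlapping an uncharacterised gene by 554 bases.

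PRDX4, the peroxiredoxin of the endoplasmic reticulum, had the smallest log2 fold changes of the 10 genes with age in edgeR. Its CPM ran from 114 to 142 in Ha, 116 to 158 in Hb, 115 to 129 in La and 129 to 152 in Lb. Ha and Hb overlapped, and all Lb libraries stood above all La libraries by a narrow gap. The log2 fold change was 0.03 (SE 0.15, adjusted p = 0.875) in Ha vs Hb and 0.21 (SE 0.10, adjusted p = 0.0918) in La vs Lb. Its direction depended on the scaling and tool: it was -0.28 with upper-quartile scaling and -0.27 with library totals in Ha vs Hb, and -0.05 with upper-quartile scaling in La vs Lb. With limma on FPKM it was -0.46 and -0.47 in Ha vs Hb (adjusted p = 0.0463 and 0.0456), under the minimum fold. In La vs Lb limma gave -0.10 at either added value (adjusted p = 0.299 and 0.305). The HZ value was also below 0 without Ha3 (-0.07) or Hb2 (-0.13). PRDX4 lies on chromosome X from 19800153 to 19819575 (NCBI Gene 100152260).

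Of the superoxide dismutases, the mitochondrial manganese enzyme SOD2 had the larger change with age. Its CPM was 132, 134 and 121 in Ha1 to Ha3 and 51.9, 56.1 and 36.0 in Hb1 to Hb3. In LC testes it was 72.4, 71.8 and 74.7 in La1 to La3 and 34.9, 42.1 and 36.8 in Lb1 to Lb3. All 120-day libraries stood below the 30-day libraries of their breed, and the Ha libraries stood far above all others. SOD2 fell in HZ testes with a log2 fold change of -1.43 (SE 0.18, adjusted p = 0.000326), while the LC log2 fold change of -0.93 (SE 0.11, adjusted p = 0.000130) was under the minimum fold. The LC difference was called without Lb2 (-1.01, adjusted p = 0.000179) and with upper-quartile scaling (-1.19), library totals (-1.10) and limma (-1.19 and -1.24), at adjusted p from 1.86e-10 to 0.000817 over the alternatives.

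The CPM of SOD1, the cytosolic copper and zinc enzyme, was 53.7, 58.9 and 40.6 in Ha1 to Ha3 and 27.01, 25.6 and 30.3 in Hb1 to Hb3. In LC testes it was 64.0, 50.6 and 49.4 in La1 to La3 and 41.4, 36.0 and 32.8 in Lb1 to Lb3. The 120-day libraries stood below the 30-day libraries in both breeds. The log2 fold change was -0.89 (SE 0.18, adjusted p = 0.00303) in Ha vs Hb and -0.56 (SE 0.15, adjusted p = 0.00853) in La vs Lb, both under the minimum fold. The HZ difference was called without Ha3 (-1.03, adjusted p = 0.00222), with upper-quartile scaling (-1.20), library totals (-1.20) and limma (-1.33 and -1.36), at adjusted p from 0.000124 to 0.0125 over the alternatives. SOD2 lies on chromosome 1 from 7679352 to 7689564 (NCBI Gene 100154319) and SOD1 on chromosome 13 from 195326573 to 195335273 (NCBI Gene 397036), where it overlaps SCAF4 by 96 bases.

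Catalase, the peroxisomal enzyme that splits hydrogen peroxide without an electron donor, fell in both breeds. The CPM of CAT was 528, 724 and 624 in Ha1 to Ha3 and 208, 78.0 and 96.2 in Hb1 to Hb3. In LC testes it was 476, 402 and 489 in La1 to La3 and 179.5, 205 and 99.5 in Lb1 to Lb3. Age groups did not overlap in either breed, and Hb1 stood above the other Hb libraries. CAT fell in HZ testes with a log2 fold change of -2.29 (SE 0.38, adjusted p = 0.00127) and in LC testes with -1.49 (SE 0.24, adjusted p = 0.000597). The call held without any single library, at log2 fold changes between -2.84 and -2.08 in Ha vs Hb and between -1.69 and -1.24 in La vs Lb. CAT lies on chromosome 2 from 26493664 to 26533881 (NCBI Gene 397568).

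**Figure D3:**
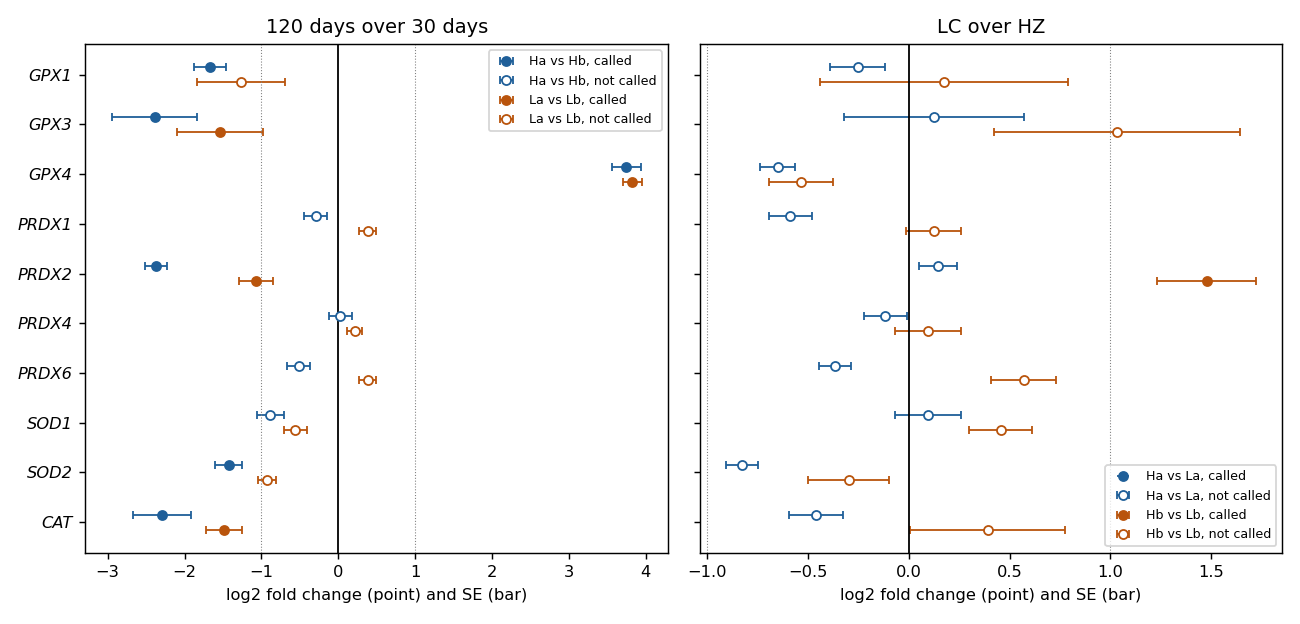
Log2 fold changes (points) with their standard errors (bars) of the 10 genes, at 120 over 30 days in the left panel and LC over HZ in the right panel, which has a narrower axis. Filled points were called, and dotted lines mark the minimum fold of 1. GPX4 lies at 3.75 and 3.83 in the left panel, and PRDX2, at 1.48 in Hb vs Lb, is the 1 filled point in the right panel.

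The comparisons Ha vs La and Hb vs Lb ask how the breeds differ at an age. At 30 days edgeR called 0 of the 10 genes in either direction, beside 3.60% of 15648 tested genes called higher in La and 4.01% called lower. DESeq2 and limma also called 0, and 5 of the 10 genes had an unadjusted p under 0.05, beside 5703 of 15648 tested genes. These 5, which also passed at the adjusted p alone beside 21.3% of all tested genes, were GPX4, PRDX1, PRDX6, SOD2 and CAT. All 5 had La libraries below all Ha libraries in CPM, but they were taken for passing at the adjusted p. The share of all tested genes with such a separation was not taken, here or at 120 days. The log2 fold change was -0.83 (SE 0.08, adjusted p = 0.00101) for SOD2, -0.65 (SE 0.09, adjusted p = 0.00295) for GPX4 and -0.59 (SE 0.11, adjusted p = 0.00886) for PRDX1. For CAT it was -0.46 (SE 0.13, adjusted p = 0.0432) and for PRDX6 -0.36 (SE 0.08, adjusted p = 0.0169). CAT did not pass at the adjusted p in the fit of all 12 libraries (0.443), with a replicate block or without Ha2, Ha3, La1, La2 or La3 (up to 0.140), and PRDX6 not in the fit of all 12 libraries (0.107) or without Ha1, La2 or La3 (up to 0.0679). The other 5 genes had log2 fold changes from -0.25 for GPX1 to 0.14 for PRDX2, with adjusted p of 0.223 or more. Those of GPX3 (0.13) and SOD1 (0.09) turned below 0 when a single library was left out, GPX3 without Ha2 (-0.05), Ha3 (-0.19) or La1 (-0.16), and SOD1 without Ha3 (-0.05) or La1 (-0.01). The median of the 10 genes was -0.31 against 0.00 over all genes.

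At 120 days PRDX2 was the 1 gene of 10 called, higher in Lb, beside 2.65% of 16311 tested genes called higher and 1.20% called lower. The same 1 gene passed at the adjusted p alone, beside 5.47% of all tested genes. Its CPM of 192, 285 and 146 in Lb1 to Lb3 stood above 87.7, 77.4 and 65.3 in Hb1 to Hb3, a log2 fold change of 1.48 (SE 0.24, adjusted p = 0.0224), or 2.78-fold. The call was lost without Hb3 (log2 fold change 1.38, adjusted p = 0.0747), Lb1 (1.53, 0.0608) or Lb2 (1.19, 0.0610), while the direction held. PRDX6 and SOD1 also had Lb libraries above all Hb libraries, and GPX4 had Lb libraries below all Hb libraries, but none of the 3 was called. Their log2 fold changes were 0.57 (SE 0.16, adjusted p = 0.0788) for PRDX6, 0.46 (SE 0.16, adjusted p = 0.122) for SOD1 and -0.53 (SE 0.16, adjusted p = 0.0857) for GPX4. Over the alternatives the adjusted p ran from 0.022 to 0.133 for PRDX6, 0.0398 to 0.207 for SOD1 and 0.0176 to 0.161 for GPX4, always under the minimum fold. With 1 library left out that of GPX4 ran from 0.0285 to 0.249. GPX3 had a log2 fold change of 1.03 (SE 0.61, adjusted p = 0.322), which was -0.0016 without Lb2, and GPX1 had 0.18 (adjusted p = 0.884), which was -0.99 without Lb2. CAT (0.39), PRDX1 (0.12), PRDX4 (0.10) and SOD2 (-0.30) had adjusted p of 0.383 or more. CAT was 0.91 without Hb1 and 0.15 without Hb2, at adjusted p from 0.133 to 0.833 with 1 library left out. PRDX4 was -0.0021 without Hb3. The median of the 10 genes was 0.28 against 0.00 over all genes.

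Whether the change with age differed between the breeds was tested as the interaction of breed and age in all 12 libraries, given as the LC change minus the HZ change. PRDX2 was called, 1 of the 10 genes, beside 3.51% of 17332 tested genes called above 0 and 1.62% called below 0. Its interaction was 1.29 (SE 0.29, adjusted p = 0.0250) on the log2 scale, since PRDX2 fell less in LC than in HZ testes. The call was lost without Ha2 (1.29, adjusted p = 0.0565), La2 (1.28, 0.0519), La3 (1.295, 0.0545) or Lb2 (0.996, 0.0330, under the minimum fold). At the adjusted p alone 2 of the 10 genes passed, PRDX2 and PRDX6, beside 7.25% of all tested genes. PRDX6 stood at 0.88 (SE 0.19, adjusted p = 0.0193). It was called without Hb1 (1.07, adjusted p = 0.00430), with library totals (1.05) and with limma (1.07 and 1.08), at adjusted p from 0.00192 to 0.0292 over the alternatives. PRDX1 stood at 0.66 (SE 0.19, adjusted p = 0.0534) and GPX4 at 0.06 (SE 0.20, adjusted p = 0.883). The other terms were 0.85 for GPX3, 0.80 for CAT, 0.48 for SOD2, 0.40 for GPX1, 0.31 for SOD1 and 0.17 for PRDX4, with adjusted p of 0.189 or more. CAT was called without Hb1 (1.38, adjusted p = 0.0352). All 10 terms lay above 0, with a median of 0.57 against 0.02 over all genes, but without Lb2 GPX1 stood at -0.78 and GPX3 at -0.21, and GPX4 stood at -0.08 without Hb2 and -0.01 without Lb1.

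Marker lists of testis cell types also held genes called with age. Cell numbers, RNA per cell and the RNA of other cells in a library cannot be told apart from them. The paper counted more spermatogenic and more Sertoli cells at 120 than at 30 days. The summed Sertoli cell markers given below were lower, but FPKM is relative to all RNA of a library and is not a cell count. Of the 10 spermatid markers, 9 were tested and all 9 were called higher at 120 days in each breed. Their summed FPKM was 5.72, 7.02 and 6.73 in Ha1 to Ha3 and 5280, 5793 and 7667 in Hb1 to Hb3. It was 10.8, 9.39 and 4.53 in La1 to La3 and 3909, 3342 and 3575 in Lb1 to Lb3. PRM1, a protamine of sperm chromatin, had the highest mean FPKM over all 12 libraries. That mean is the measure behind each marker named below as highest in the mean. The 6 libraries with high sums were the 120-day libraries, which were also the 6 with high GPX4, though not in the same order. Any gene that is higher at 120 days without overlap shares this split. All 8 spermatocyte markers rose in both breeds, with PIWIL1 highest in the mean (MEIOB in La) and sums of 10.5, 11.0 and 6.50 in Ha1 to Ha3, 151, 157 and 134 in Hb1 to Hb3, 5.40, 4.76 and 4.41 in La1 to La3 and 116, 110.3 and 124 in Lb1 to Lb3. Of 11 spermatogonial markers, 3 rose and 6 fell in Ha vs Hb and 4 rose and 5 fell in La vs Lb, and their sum, with DDX4 highest in the mean (DAZL in Ha and ZBTB16 in La), was 76.0, 73.3 and 59.5 in Ha1 to Ha3, 177, 182 and 173 in Hb1 to Hb3, 41.2, 40.6 and 43.9 in La1 to La3 and 155, 139.8 and 162 in Lb1 to Lb3. DDX4 is also expressed by later germ cells.

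Markers of somatic cells were called lower at 120 days in part. Of the 7 Leydig cell markers, 4 fell in HZ and 5 in LC testes. Their summed FPKM, with INSL3 highest in the mean (CYP17A1 in Ha and La), was 5487, 5009 and 4883 in Ha1 to Ha3 and 2180, 189 and 128 in Hb1 to Hb3, and 7771, 5341 and 6281 in La1 to La3 and 2708, 4057 and 1712 in Lb1 to Lb3. Hb1 and Lb2 were the highest 120-day libraries of their breeds. Of the 10 genes, Hb1 was also the highest Hb library for GPX3, PRDX1, PRDX2, PRDX6 and CAT, but the lowest for GPX1. Lb2 was the highest Lb library for GPX1, GPX3, PRDX1, PRDX2, SOD2 and CAT, but the lowest for PRDX6. How many of all genes were highest in Hb1 or Lb2 was not counted, and a link to the Leydig cell sums was not tested. Of the 8 Sertoli cell markers, 4 fell in each breed, with INHA highest in the mean (CLDN11 in Hb and Lb) and sums of 782, 751 and 973 in Ha1 to Ha3, 181, 288 and 216 in Hb1 to Hb3, 1508, 1770 and 1632 in La1 to La3 and 311, 385 and 370.5 in Lb1 to Lb3. Of the 10 markers of peritubular and stromal cells, 8 fell in Ha vs Hb, and 5 fell and 1 rose in La vs Lb. Their sum, with COL3A1 highest in the mean (ACTA2 in Hb), was 976, 949.8 and 978 in Ha1 to Ha3, 102, 101 and 66.5 in Hb1 to Hb3, 1341, 1224 and 1512 in La1 to La3 and 530.1, 516 and 562 in Lb1 to Lb3.

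The remaining lists cover vessels and blood. All 5 endothelial markers fell in HZ and 3 in LC testes, and their sum, with VWF highest in each group, was 93.7, 94.5 and 84.3 in Ha1 to Ha3, 13.9, 26.7 and 15.7 in Hb1 to Hb3, 98.0, 78.3 and 91.0 in La1 to La3 and 28.2, 45.7 and 28.6 in Lb1 to Lb3. All 5 macrophage markers fell in HZ and 4 in LC testes, and their sum, with CSF1R highest in the mean (CD163 in Ha), was 40.3, 32.7 and 32.6 in Ha1 to Ha3, 3.49, 4.56 and 2.24 in Hb1 to Hb3, 38.3, 33.0 and 36.3 in La1 to La3 and 5.91, 9.64 and 9.91 in Lb1 to Lb3. Both sums were higher in every 30-day library than in any 120-day library. Of 9 red blood cell markers, 7 were in the table, and 6 of 7 tested fell in Ha vs Hb, while 1 of 4 tested rose in La vs Lb. Their sum, with HBB highest in each group, was 166, 228 and 73.1 in Ha1 to Ha3 and 4.52, 17.5 and 26.7 in Hb1 to Hb3. It was 108, 37.9 and 36.4 in La1 to La3 and 13.1, 18.2 and 45.0 in Lb1 to Lb3, and Hb and Lb overlapped in it. Each Lb library stood above each Hb library in the sums of Sertoli, peritubular and stromal, endothelial and macrophage markers. Each Lb library stood below each Hb library in those of spermatogonial, spermatocyte and spermatid markers. No marker of the 9 lists stood at 0 in all 3 libraries of a group. Of the markers tested between breeds, 4 of 8 for spermatocytes, 4 of 7 for red blood cells and 1 of 10 for spermatogonia were called lower in La than in Ha. Called higher were 3 of 8 for Sertoli cells and 1 of 7 for Leydig cells. Of all tested genes 4.01% were lower and 3.60% higher. At 120 days 5 of 10 peritubular and stromal, 1 of 5 endothelial and 1 of 5 macrophage markers were called higher in Lb, beside 2.65% of all tested genes. Of 10 spermatid markers 1 was lower, beside 1.20%. In the interaction test 5 of 10 peritubular and stromal, 2 of 11 spermatogonial, 1 of 5 endothelial, 1 of 5 macrophage and 1 of 7 red blood cell markers were called above 0, beside 3.51%. Of 10 spermatid markers 2 were called below 0, beside 1.62%. The part of these cell types in the results of the 10 genes was not tested.

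Of 99 further genes of peroxide and thiol metabolism in 9 lists, 92 were in the table. In Ha vs Hb 87 were tested, of which 20 rose and 31 fell, with a median log2 fold change of -0.56, and in La vs Lb 85 were tested, of which 16 rose and 20 fell, with a median of -0.45. The share that fell lay above the 23.2% of all tested genes in HZ testes and near the 20.1% in LC testes, and the share that rose lay below the 28.2% and 27.5% of all tested genes. The counts of each list below stand beside these same shares, and those at the adjusted p alone beside 68.9% and 70.0%, and most lists are too short to tell from them. Of the 5 tested members of the same families outside the 10, 1 rose and 2 fell in each breed. The mitochondrial and peroxisomal peroxiredoxin PRDX5 stood at 79.2 ± 11.9 FPKM in Ha, 422 ± 79.8 in Hb, 56.5 ± 3.76 in La and 372 ± 1.31 in Lb, the most FPKM of its list in the mean of all 12 libraries, as for each gene given below as highest of its list in the mean. It rose in La vs Lb with a log2 fold change of 3.03 (SE 0.11, adjusted p = 1.15e-07) and in Ha vs Hb with 2.92 (SE 0.22, adjusted p = 3.12e-05). PRDX3, the mitochondrial peroxiredoxin, stood above PRDX5 at 30 days and went the other way, from 381 ± 28.6 FPKM in Ha to 38.0 ± 16.2 in Hb and from 369.9 ± 56.7 in La to 108 ± 33.2 in Lb. It fell with log2 fold changes of -2.80 (SE 0.33, adjusted p = 0.000261) and -1.45 (SE 0.24, adjusted p = 0.000822). PRDX3 and the HZ value of PRDX5 were singled out after their values were seen.

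The thioredoxin system, which feeds electrons to the peroxiredoxins, had genes called in both directions. Of 17 genes tested in Ha vs Hb 8 rose and 5 fell, and of 16 in La vs Lb 6 rose and 4 fell. The shares that fell were near those of all tested genes (23.2% and 20.1%), and the shares that rose lay above them (28.2% and 27.5%), over few genes. TXNDC8, a thioredoxin known from spermatids, had 0.93, 0.77 and 0.93 estimated counts in Ha1 to Ha3 and stood at 23.4 ± 4.70 CPM in Hb. It rose at least 199-fold (adjusted p = 2.30e-06) against a floor of 3 counts in each Ha library. Sulfiredoxin, SRXN1, which repairs overoxidised peroxiredoxins, stood at 70.6 ± 16.4 CPM in Ha and 9.47 ± 2.71 in Hb, and fell with a log2 fold change of -2.89 (SE 0.27, adjusted p = 7.99e-05). Thioredoxin itself, TXN, stood at 46.0 ± 1.24 CPM in La and 15.0 ± 1.25 in Lb, and fell with a log2 fold change of -1.60 (SE 0.13, adjusted p = 9.83e-06). TXNIP, an inhibitor of thioredoxin, was highest in the mean, though not at 120 days, at 374 ± 23.5 FPKM in Ha, 90.0 ± 26.8 in Hb, 224 ± 15.7 in La and 56.2 ± 18.9 in Lb. It fell with log2 fold changes of -1.57 (SE 0.21, adjusted p = 0.000435) and -1.67 (SE 0.23, adjusted p = 0.000264).

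Genes that make and reduce glutathione, the donor of the glutathione peroxidases, mostly fell in HZ testes. Of 11 genes 8 fell in Ha vs Hb, and 2 fell and 1 rose in La vs Lb. The share that fell lay above the 23.2% of all tested genes in HZ testes and near the 20.1% in LC testes. At the adjusted p alone 8 passed in HZ testes, near the 68.9% of all tested genes, and 11 in LC testes, beside 70.0%. Glutathione reductase, GSR, stood at 89.7 ± 9.49 CPM in Ha and 13.9 ± 3.67 in Hb, and fell with a log2 fold change of -2.68 (SE 0.22, adjusted p = 4.58e-05). Malic enzyme, ME1, which supplies NADPH, stood at 78.9 ± 17.9 CPM in La and 14.8 ± 2.21 in Lb, and fell with -2.40 (SE 0.20, adjusted p = 1.39e-05). IDH1, another source of NADPH, had the most FPKM in each group, at 145 ± 35.2 in Ha, 34.3 ± 6.93 in Hb, 127 ± 19.9 in La and 64.0 ± 11.0 in Lb. It fell in HZ testes with a log2 fold change of -1.58 (SE 0.25, adjusted p = 0.00101), while in LC testes it had -0.68 (SE 0.18, adjusted p = 0.00819), under the minimum fold.

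Of the 9 glutathione S-transferases in the table, which join glutathione to other molecules, 2 rose and 4 fell in Ha vs Hb and 1 rose and 3 fell in La vs Lb. GSTM3 was highest in the mean and at 120 days, but not at 30 days, at 54.5 ± 7.94 FPKM in Ha, 1928 ± 163 in Hb, 71.2 ± 6.80 in La and 1521 ± 116 in Lb. It rose with log2 fold changes of 5.65 (SE 0.22, adjusted p = 2.39e-06) and 4.73 (SE 0.14, adjusted p = 6.85e-08), larger than those of GPX4. Of 10 genes of the NRF2 axis, which controls antioxidant genes, 2 rose and 4 fell in Ha vs Hb and 2 rose and 2 fell in La vs Lb. HMOX2, the constitutive heme oxygenase, stood at 52.2 ± 3.79 CPM in Ha and 429.7 ± 48.3 in Hb, and rose with a log2 fold change of 3.04 (SE 0.14, adjusted p = 4.56e-06). FTH1, the ferritin heavy chain that stores iron, was highest in the mean, though not in La, in FPKM at 1434 ± 70.5 in Ha, 539.5 ± 21.2 in Hb, 1383 ± 160.1 in La and 769 ± 99.2 in Lb. Its log2 fold changes of -0.91 (adjusted p = 0.000936) and -0.53 (adjusted p = 0.0103) were under the minimum fold, although the former was called with upper-quartile scaling (-1.23), library totals (-1.23) and limma (-1.41).

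GPX1, GPX3 and GPX4 carry selenocysteine, and of the genes for selenoprotein synthesis and transport 4 rose and 1 fell in each breed, of 10 tested in HZ and 9 in LC testes, beside 28.2% and 27.5% of all tested genes that rose and 23.2% and 20.1% that fell. SELENOV, a selenoprotein known from testis, stood at 1.10 ± 0.288 CPM in La and 108 ± 6.92 in Lb, and rose with a log2 fold change of 6.64 (SE 0.19, adjusted p = 6.21e-08). SELENOP, which carries selenium to the testis, was highest in the mean, though not in Hb, in FPKM at 289.9 ± 4.43 in Ha, 49.6 ± 17.9 in Hb, 232 ± 20.4 in La and 74.7 ± 2.80 in Lb. It fell in La vs Lb with a log2 fold change of -1.32 (SE 0.11, adjusted p = 1.49e-05) and in Ha vs Hb with -2.07 (SE 0.22, adjusted p = 0.000155). SELENOW was listed at 0 in all 12 libraries. Of 8 genes for metal supply and repair of oxidised methionine, 1 fell in HZ and 2 in LC testes, and ATOX1, a copper chaperone, led in FPKM in each group at 123 ± 23.8 in Ha, 47.7 ± 6.17 in Hb, 109.5 ± 11.13 in La and 82.3 ± 3.37 in Lb. It was not called, at log2 fold changes of -0.87 (adjusted p = 0.00511) and -0.10 (adjusted p = 0.507), although the former was called without Ha2 (adjusted p = 0.00603), with upper-quartile scaling (-1.19), library totals (-1.18) and limma (-1.34 and -1.35).

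Of 7 tested genes for enzymes that make oxidants, 1 rose and 3 fell in each breed. CYBA, a subunit of NADPH oxidases, was highest in the mean and at 30 days, but not at 120 days, at 8.72 ± 1.49 FPKM in Ha, 2.12 ± 0.897 in Hb, 14.2 ± 1.25 in La and 2.21 ± 0.800 in Lb. It fell with log2 fold changes of -1.55 (SE 0.36, adjusted p = 0.00606) and -2.39 (SE 0.29, adjusted p = 0.000113). Of 10 genes for peroxisome import and oxidases, where CAT also works, 2 rose and 3 fell in Ha vs Hb and 1 fell in La vs Lb, where 8 of the 10 passed at the adjusted p alone, near the 70.0% of all tested genes. ACOX2, an oxidase of bile acid intermediates, stood at 41.0 ± 5.09 CPM in Ha and 5.55 ± 0.861 in Hb, and fell with a log2 fold change of -2.88 (SE 0.19, adjusted p = 1.71e-05).

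Between the breeds fewer of the 99 listed genes were called. In Ha vs La 85 were tested, of which 3 were higher and 2 lower in La, near the 3.60% and 4.01% of all tested genes, with a median log2 fold change of -0.06. MSRB2, which repairs methionine in mitochondria, stood at 6.94, 11.0 and 6.60 CPM in Ha1 to Ha3 and 27.9, 24.0 and 24.6 in La1 to La3, a log2 fold change of 1.63 (SE 0.21, adjusted p = 0.00276). SOD3, the secreted superoxide dismutase, stood at 21.8, 32.8 and 32.9 in Ha1 to Ha3 and 64.7, 55.1 and 66.2 in La1 to La3, a log2 fold change of 1.09 (SE 0.17, adjusted p = 0.00512), which was 0.92 without Ha1, under the minimum fold. Lower in La were GGT1, which breaks down glutathione outside the cell, with a log2 fold change of -1.31 (SE 0.09, adjusted p = 0.000348) and NQO1, a quinone reductase, with -1.19 (SE 0.20, adjusted p = 0.00647). In a fit of all 12 libraries SOD3 and NQO1 were not called, at adjusted p of 0.162 and 0.156. The remaining gene higher in La, named after its value was seen, was DAO, a peroxisomal oxidase of amino acids, with a log2 fold change of 1.46 (SE 0.32, adjusted p = 0.0168), which was lost without Ha1 (adjusted p = 0.0588), La2 (0.0578) or La3 (0.0629), in the fit of all 12 libraries (0.0707) and with limma on log2(FPKM + 1), where its log2 fold change was 0.76. Without Ha2 the count of called genes was 8.

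In Hb vs Lb 85 of these genes were tested, of which 3 were higher and 1 lower in Lb, near the 2.65% and 1.20% of all tested genes, with a median log2 fold change of 0.25. GPX7, a peroxidase of the endoplasmic reticulum, stood at 4.23, 3.53 and 3.82 CPM in Hb1 to Hb3 and 11.3, 13.6 and 9.60 in Lb1 to Lb3, a log2 fold change of 1.62 (SE 0.24, adjusted p = 0.0163). GLRX5, a mitochondrial glutaredoxin, was higher with 1.02 (SE 0.22, adjusted p = 0.0432) and TXNDC8 lower with -1.01 (SE 0.23, adjusted p = 0.0460). GSR, the other gene called higher, had a log2 fold change of 1.25 (SE 0.28, adjusted p = 0.0455) and was named after its value was seen. Most of these calls were lost when a single library was left out: GPX7 without Hb3 (adjusted p = 0.0556), Lb1 (0.0586), Lb2 (0.0699) or Lb3 (0.0502), and GSR without any of the 6 (0.0527 to 0.140). GLRX5 was lost without Hb1 (0.0808), Hb3 (0.114), Lb1 (0.103), Lb2 (0.135) or Lb3 (0.127), and TXNDC8 without Hb2 (0.0532), Hb3 (0.141), Lb1 (0.131), Lb2 (0.0982) or Lb3 (0.149). With a replicate block none of these genes was called (adjusted p from 0.0608 to 0.0976). GLRX5 was also under the minimum fold with DESeq2 (0.998) and in the fit of all 12 libraries (0.976), as was TXNDC8 with library totals (-0.96) and limma (-0.86 and -0.89). The count of called genes was 10 without Hb1, 7 without Hb2, 2 without Lb3 and 0 without Hb3, Lb1 or Lb2 in edgeR. With all 6 libraries 37 of the 85 had an unadjusted p under 0.05, beside 4153 of all 16311 tested genes. DESeq2 called 11, beside 1224 of 19939 genes. With 1 and 0.1 added limma called 7 and 7, beside 499 and 811 of 16834 genes.

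For the listed genes the interaction was called for 5 of 88 tested genes above 0 and 1 below 0, beside 3.51% and 1.62% of all tested genes, with a median of 0.30. Above 0 were GLRX5 with 1.17 (SE 0.25, adjusted p = 0.0214) and NQO1 with 3.15 (SE 0.71, adjusted p = 0.0247), and below 0 was SELENOV with -3.31 (SE 0.64, adjusted p = 0.0149). SELENOV had 2.42, 9.89 and 0.28 estimated counts in Ha1 to Ha3, so its value depends on few reads: it was -5.18 without Ha2, and -1.02 with limma on log2(FPKM + 1). The other 3 genes above 0, named after their values were seen, were GSR (1.47, adjusted p = 0.0247), SRXN1 (1.44, 0.0474) and GGT1 (1.32, 0.0489). GLRX5 was lost without Ha1 (adjusted p = 0.0569), Ha2 (0.0535) or La3 (0.0559), NQO1 without Ha1 (0.0522), La2 (0.0572), La3 (0.0572) or Lb2 (0.0580), and GSR without Ha1 (0.0501), Ha2 (0.0616) or La2 (0.0535). SRXN1 was called without Hb1 or Lb3 and lost without each of the other libraries (0.0565 to 0.0987), and GGT1 was called without Hb2 and lost without each of the others (0.0538 to 0.115). SRXN1 was also lost with RLE scaling (0.0543) and the replicate block (0.0503), and GGT1 with no filter (0.0532) and the replicate block (0.0638). The count was 1 without Ha1, 3 without Ha2, 11 without Hb1 and 2 without La2 or La3.

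Correlations of the 10 genes over the 12 libraries (log2 CPM) are given as a description, since the libraries share a split by age. GPX4 ran against PRDX2 (Pearson r = -0.892, n = 12), CAT (-0.880), SOD1 (-0.866), GPX3 (-0.806), SOD2 (-0.794) and GPX1 (-0.790). With PRDX1 (0.190), PRDX4 (0.364) and PRDX6 (-0.164) its correlations were weak. PRDX2 ran with SOD1 (0.898) and CAT (0.885), and GPX1 with SOD2 (0.811), GPX3 (0.808) and CAT (0.804). GPX3 ran more closely with PRDX2 (0.856), CAT (0.847) and SOD1 (0.822) than with GPX1. Over the same 12 libraries, the genes most like each member by Pearson r were VDAC3 (0.999) and CLPB (0.999) for GPX4, NAA60 (0.963) and GPRC5C (0.956) for GPX1, and OGDH (0.955) and RHBDD2 (0.945) for GPX3. For the peroxiredoxins they were ZBTB7C (0.992) and TREML2 (0.990) for PRDX2, NUP205 (0.952) and PSMB5 (0.936) for PRDX1, OMD (0.906) and CLTB (0.888) for PRDX6, and HSD17B14 (0.824) and HIGD1A (0.824) for PRDX4. PRDX4 thus had the weakest matches. For the dismutases they were ASAH1 (0.982) and DLAT (0.972) for SOD2 and CLIC2 (0.956) and MCL1 (0.954) for SOD1, and for CAT they were PAPSS2 (0.985) and CARHSP1 (0.979).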

How the data were processed

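Strand-specific libraries were made by the authors from testis RNA of 12 boars after removal of ribosomal RNA, 1 library a boar. The authors filtered reads with fastp 0.18.0, removed ribosomal reads with Bowtie2 2.2.8, mapped the rest to the pig genome Sscrofa11.1 with HISAT2 2.1.0 and assembled transcripts with StringTie 1.3.4. The authors deposited an estimated count for each gene and library, not normalized and not always whole, by a tool that is not stated. The deposited FPKM values, scaled by length and mapped fragments, were rounded by the authors to 2 decimals.

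Columns were matched to groups by their labels, and no library was left out. The expected counts were rounded to whole numbers. For each comparison, the 6 libraries were fitted in edgeR 4.0.16 (R 4.3.3) over all genes that passed filterByExpr at a minimum count of 10, with TMM factors and the quasi-likelihood F test. The standard error is the absolute log2 fold change divided by the square root of F. The interaction of breed and age was fitted to all 12 libraries. Alternatives used DESeq2 1.42.0, limma 3.58.1 on log2 FPKM with 1 or 0.1 added (genes of mean FPKM over 0.1), other scalings (RLE, upper-quartile, library totals), no filter, 10 counts in every library of a group, 1 fit of all 12 libraries, a replicate block, no minimum fold, and each library left out in turn. Levels and figures used Python 3.11.15, numpy 2.4.6, pandas 2.3.3 and matplotlib 3.10.9. Estimated counts carry counting error, and the 3 boars of a group set the precision.

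All 10 genes are named. Of the listed pathway genes, the text names those called with the lowest adjusted p, 3 in each direction for each comparison of ages, 2 for each comparison of breeds and the interaction, and the gene of each list with the most FPKM in the mean of 12 libraries. Of each marker list it names the gene most abundant in that mean, and for each of the 10 genes the 2 genes with the highest Pearson r over 12 libraries (log2 CPM, prior count 2). Any other gene was chosen once its values had been seen. A withheld item is not reported here. The 10 genes and the lists were chosen with earlier results of these data known.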

Additional observations from a re-analysis of the deposited data

Results flagged for a closer look

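The change with age differed between the breeds, by the interaction of breed and age in edgeR (LC change minus HZ change, log2 scale, 12 libraries), at an adjusted p under 0.05 for 2 of the 10 enzymes and 9 of 88 tested genes of thiol and peroxide metabolism, beside 7.25% of all tested genes. The share of the 88 genes lies near that of all tested genes, and that of the enzymes rests on few genes. The enzymes were PRDX2 at 1.29 (adjusted p = 0.0250) and PRDX6 at 0.88 (adjusted p = 0.0193). Among the listed genes those named, some of them for passing, were SRXN1 at 1.44 (adjusted p = 0.0474), GLRX5 at 1.17 (0.0214), GSR at 1.47 (0.0247), GGT1 at 1.32 (0.0489), NQO1 at 3.15 (0.0247), GSTM3 at -0.93 (0.0285) and SELENOV at -3.31 (0.0149). PRDX6 and GSTM3 were under the minimum fold, and GSTM3 did not pass at the adjusted p without Ha1, Hb3, La1, La2, Lb2 or Lb3 (up to 0.0704) and was called without Ha2, Hb2 or Lb1 (-1.04, -1.04 and -1.01). The CPM of SRXN1 was 88.8, 56.9 and 66.1 in Ha1 to Ha3, 12.5, 8.59 and 7.32 in Hb1 to Hb3, 66.9, 52.0 and 59.4 in La1 to La3 and 20.2, 30.3 and 14.4 in Lb1 to Lb3, so that, as for PRDX2, the breeds overlapped at 30 days and stood apart at 120 days. That of GSR was 90.0, 98.98 and 80.0 in Ha1 to Ha3, 17.2, 14.6 and 9.96 in Hb1 to Hb3, 83.8, 63.4 and 78.2 in La1 to La3 and 31.1, 42.5 and 23.2 in Lb1 to Lb3, with the same order. NQO1 stood at 537, 378 and 535 in Ha1 to Ha3, 85.4, 22.5 and 16.8 in Hb1 to Hb3, 264, 162 and 212 in La1 to La3 and 124, 226 and 138 in Lb1 to Lb3. Summed FPKM of markers of spermatogonia, spermatocytes, spermatids, Sertoli cells, peritubular and stromal cells, endothelial cells and macrophages also stood apart between Hb and Lb, and their part in these differences was not tested. For PRDX2, GLRX5, GSR and NQO1 leaving out 1 of 3 or 4 libraries ended the call, and for SRXN1 and GGT1 leaving out most of the 12.

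A signal outside the coding-gene table came from the annotated long non-coding RNA LOC102165967, which lies 956 bases from PRDX4 on chromosome X. Its estimated counts were 18, 27 and 20 in Ha1 to Ha3 and 34, 63 and 35 in Hb1 to Hb3, and 9, 1 and 7 in La1 to La3 and 55, 43 and 46 in Lb1 to Lb3. The highest count of 63 was 1.17 FPKM, every 120-day library stood above the 30-day libraries of its breed, and the difference was not tested. LOC102165936, 3429 bases from PRDX1, had counts of 0 or 1 in each library.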

How the results depend on the processing

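With 3 boars a group, the counts of called genes depend on single libraries most in Hb vs Lb and in the interaction. Filters and RLE scaling left all results on the 10 genes on their side of the threshold. Called members were 8 in La vs Lb, 5 in Ha vs La and 2 in the interaction with no minimum fold, beside 70.0%, 21.3% and 7.25% of all tested genes. In the interaction they were 2 with library totals, beside 1081 of 17332 genes. They were also 2 with limma at either added value (1 and 0.1), beside 921 and 1360 of 17306 genes. Called pathway genes were 65 of 85 in La vs Lb and 19 of 85 in Ha vs La with no minimum fold, near the 70.0% and 21.3% of all tested genes. With all 12 libraries in 1 fit they were 3 at 30 days and 10 at 120 days between breeds, beside 962 and 1258 of 17332 genes. With DESeq2 they were 11 in Hb vs Lb and 10 in the interaction, beside 1224 of 19939 and 1378 of 20641 genes. With limma (1 and 0.1 added) they were 7 and 7 in Hb vs Lb, beside 499 and 811 of 16834 genes. In the interaction limma called 11 and 12, beside 921 and 1360 of 17306 genes. The direction of PRDX4 turned in Ha vs Hb with upper-quartile scaling (-0.28), library totals (-0.27) and limma (-0.46 and -0.47), and in La vs Lb with upper-quartile scaling (-0.051) and limma (-0.10 and -0.10). GPX1 turned in Hb vs Lb with limma (-0.074 and -0.10). The cause of these turns was not tested. The median of all genes moved with limma by -0.24 and -0.42 for age in HZ testes, -0.16 and -0.26 for age in LC testes, 0.07 and 0.12 in Hb vs Lb and, with 0.1 added, 0.17 in the interaction. With library totals it moved by 0.15 in the interaction and -0.17 for age in LC testes, where PRDX4 did not turn (0.04).

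Leaving out 1 library at a time, log2 values ran for GPX1 from -0.99 to 0.58 in Hb vs Lb and -0.78 to 0.83 in the interaction, for GPX3 from -0.19 to 0.81 in Ha vs La, -0.0016 to 1.52 in Hb vs Lb and -0.21 to 1.39 in the interaction, and for GPX4 from -0.078 to 0.20 in the interaction. For PRDX4 they ran from -0.13 to 0.13 in Ha vs Hb and -0.0021 to 0.25 in Hb vs Lb, and for SOD1 from -0.050 to 0.21 in Ha vs La. Called members ran from 2 to 6 in La vs Lb (2 without La1 or Lb3), 0 to 1 in Hb vs Lb (0 without Hb3, Lb1 or Lb2) and 0 to 3 in the interaction (3 without Hb1, 0 without Ha2, La2, La3 or Lb2). Called pathway genes ran from 5 to 8 in Ha vs La (8 without Ha2), 0 to 10 in Hb vs Lb (10 without Hb1, 0 without Hb3, Lb1 or Lb2) and 1 to 11 in the interaction (11 without Hb1, 1 without Ha1). Over all genes tested in Hb vs Lb, calls were 628 with the 6 libraries, 97 without Lb2, 1029 without Hb2 and 154 with the replicate block.

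With a replicate block, which treats libraries of the same number as paired, called members were 6 for age in HZ, 5 for age in LC, 0 and 1 for breed at 30 and 120 days, and 1 in the interaction, pathway genes were, in the same order, 52, 36, 5, 0 and 4, and GPX1 turned to -0.21 in Hb vs Lb. Over all tested genes the block called, in that order, 8430 of 16548, 7770 of 16637, 1030 of 15648, 154 of 16311 and 672 of 17332. Same-number libraries correlated at -0.0222 to 0.0527 after group means were removed, and the labels name no pairs, although each Ha library correlated best with the Hb library of its own number. Of the 10 members, 5 had an unadjusted p under 0.05 in Ha vs La, beside 5703 of 15648 tested genes, where edgeR, DESeq2 and limma called 0 members. Depth limits genes near the floor of 3 counts, as TXNDC8 in Ha and La, and not the 10 enzymes.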

Other observations

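The nearest annotated genes within 10 kb of the 10 enzymes were coding genes for 8 of them. Beside the overlaps already given, RHOA starts 1147 bases from GPX1, TNIP1 ends 498 bases from GPX3, SBNO2 and POLR2E lie 1197 and 6824 bases from GPX4, JUNB 2612 bases from PRDX2, MMACHC 970 bases from PRDX1, TNFSF4 172 bases from PRDX6 and ELF5 6862 bases from CAT. No assembled long non-coding RNA lay within 10 kb of any of the 10. Estimated counts of GPX4, PRDX4 and SOD2 included values that were not whole, and those of the other 7 genes were whole in all 12 libraries.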
